A study of Mus musculus with 18 samples.

Results

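The genes described here are 10 ligands and receptors of the VEGF and PDGF families, namely Vegfa, Vegfb, Vegfc, Pgf, Pdgfa, Pdgfb, Pdgfc, Pdgfra, Pdgfrb and Nrp1. They were taken from a list of names that was chosen with earlier results of these data known. They were found in the raw count table by their Ensembl identifiers without the version. All 10 were among the 55401 identifiers of the table, 7 of them ligands and 3 of them receptors. Their RNA was measured by RNA-seq in 18 libraries of mouse embryonic fibroblasts (MEFs), primary cells grown from the body of C57BL/6 embryos after the head and viscera were taken away. The libraries fell into 6 groups of 3. The S6K1 series held wild-type MEFs with an empty retroviral vector (WT EV), wild-type MEFs with a vector for constitutively active HRAS (WT RAS) and MEFs without S6K1 with the same RAS vector (KO RAS). The S6K1/S6K2 series held its own WT EV and WT RAS groups and MEFs without both kinases carrying RAS (DKO RAS).

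The cells of all 6 groups were transduced with a retrovirus and selected with puromycin, so none was untreated. WT and KO MEFs of the S6K1 series came from littermates of heterozygous mothers. DKO MEFs came from S6K1 heterozygous, S6K2-null crosses, and their WT controls from wild-type mothers at earlier stages of the breeding, so genotype and litter cannot be told apart in that series. S6K1 and S6K2, encoded by Rps6kb1 and Rps6kb2, are kinases downstream of mTORC1 that phosphorylate ribosomal protein S6. Constitutively active RAS drives cultured fibroblasts into senescence, in which they secrete many growth factors and cytokines. The comparisons ask which of the VEGF and PDGF genes changed with RAS, and whether the level under RAS differed without the kinases. KO or DKO cells with the empty vector were not analysed here, so a loss effect refers to RAS-expressing cells.

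VEGF ligands are secreted dimers that act on receptor tyrosine kinases of endothelial cells. VEGF-A signals mainly through VEGFR2 (Kdr), VEGF-B and placental growth factor (Pgf) bind VEGFR1 (Flt1), and VEGF-C and VEGF-D act on VEGFR3 (Flt4) of lymphatic vessels. Neuropilins (Nrp1 and Nrp2) are coreceptors that bind VEGF as well as class 3 semaphorins. PDGF ligands drive growth and migration of mesenchymal cells through PDGF receptors α (Pdgfra) and β (Pdgfrb), which fibroblasts carry. PDGF-AA and PDGF-CC act through the α receptor, whereas PDGF-BB binds both receptors. PDGF-CC and PDGF-DD are secreted as latent dimers that proteases activate, urokinase (Plau) in the case of PDGF-DD.

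The promoter sequences of 2 VEGF ligands are shown because Vegfa rose with RAS in the S6K1/S6K2 series and Vegfb, which did not pass the test in either series, held the most Sp1 matches of the 8 genes searched. Each is the 250 bases before the most upstream start that the RefSeq promoter table lists (GRCm38.p6), written 5′ to 3′ on the strand of the gene, with matches to the Sp1 motif GGGCGG, or its complement, in capitals.
Vegfa, chr17:46032378-46032627, minus strand: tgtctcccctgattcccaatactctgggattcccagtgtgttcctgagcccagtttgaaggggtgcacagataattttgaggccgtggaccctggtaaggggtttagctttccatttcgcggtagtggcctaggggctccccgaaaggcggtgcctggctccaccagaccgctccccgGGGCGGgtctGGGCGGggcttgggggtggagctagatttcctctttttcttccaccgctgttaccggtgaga
Vegfb, chr19:6987652-6987901, minus strand: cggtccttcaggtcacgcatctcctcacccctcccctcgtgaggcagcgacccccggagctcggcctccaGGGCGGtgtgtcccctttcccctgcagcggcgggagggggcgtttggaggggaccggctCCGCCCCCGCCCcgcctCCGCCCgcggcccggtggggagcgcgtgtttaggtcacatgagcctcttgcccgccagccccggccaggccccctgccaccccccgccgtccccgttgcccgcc

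RefSeq promoters of 8 of the 10 genes were searched on both strands for 4 motifs. Pdgfb had no promoter listed, and Pdgfrb was left out of the search. In 4 of the 8 (Pgf, Pdgfa, Pdgfra and Nrp1) the window lay inside the RefSeq span of the gene, so that span reaches further upstream. More than 1 start was listed for Vegfa, Pgf and Pdgfa. The AP-1 motif TGANTCA, the HIF motif ACGTG and the ETS motif CCGGAA had no match in these windows, compared with 6.85%, 16.5% and 12.3% of all 27025 mouse promoters of the same length. Sp1 matches were present in 6 of the 8, against 33.0% of all promoters, a share not matched for base composition. The windows with a match were 59.2% to 76.4% G or C, and those without, of Pdgfc and Pdgfra, 50.8% and 54.4%. Vegfb held 4 of them, Vegfa, Vegfc, Pgf and Pdgfa held 2 each, and Nrp1 held 1, whereas Pdgfc and Pdgfra had none. In Vegfa the matches began 72 and 62 bases before the start, and in Pgf 50 and 31 bases before it. The Sp1 matches overlapped no other motif searched, and a match describes the letters only.

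The libraries held 8319445 to 14402442 counts. In the check of the targeted genes, Rps6kb1 reads in KO RAS cells were 23.6, 31.3 and 37.0 CPM (counts scaled to the size of the library by TMM, within each series), below the 61.6, 70.9 and 74.6 CPM of WT RAS. Rps6kb1 fell by 1.11 on the log2 scale (edgeR quasi-likelihood test, adjusted p = 0.00908) and Rps6kb2 by 3.18 (adjusted p = 7.44e-05) in DKO RAS. The summed CPM of 10 fibroblast markers was 43912 to 54075 in the 6 EV libraries and 23937 to 36335 in the 12 RAS libraries. The collagen genes Col1a1, Col1a2 and Col3a1 fell in both series and Twist1 in the S6K1/S6K2 series, whereas Vim, Fn1, Thy1, Fap, Prrx1 and Dcn did not pass in either without the block. Vim, for example, averaged 3978 CPM in WT EV and 5199 CPM in WT RAS of the S6K1 series. With the replicate number as a block, 7 of the 10 passed in that series, Vim and Dcn among them as higher (adjusted p = 0.0209 and 0.00878). Endothelial markers summed to 15.9 to 43.8 CPM over 12 genes, and single genes of the list moved within that sum. Cdh5 averaged 0.073 and 0.029 CPM in WT EV and 2.77 and 2.79 CPM in WT RAS of the 2 series and rose in both (adjusted p = 0.00322 and 0.000517), as did Esam, from 0.22 and 0.23 to 1.19 and 3.24 CPM (adjusted p = 0.0174 and 0.000578). Egfl7 rose in the S6K1 series, from 7.33 to 14.1 CPM (adjusted p = 0.0444), Erg fell in both and Tek in the S6K1/S6K2 series, and Pecam1 reached at most 0.69 CPM. The 6 epithelial markers summed to 0.09 to 0.97 CPM in EV and 8.71 to 35.6 CPM in RAS libraries, and the 8 pericyte and smooth muscle markers to 88.1 to 448 CPM. Macrophage markers, 11 genes, differed between libraries of the same group. They summed to 2858, 2213 and 576 CPM in WT EV, 3309, 2997 and 659 CPM in WT RAS and 760, 603 and 221 CPM in KO RAS of the S6K1 series, in replicate order. The S6K1/S6K2 series had sums of 1236, 140 and 182 CPM in WT EV, 908, 164 and 234 CPM in WT RAS and 211, 67.4 and 89.9 CPM in DKO RAS. In whole cultures like these, fewer cells of a type and less RNA per cell cannot be told apart.

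All 10 genes passed the filter on low counts in every fit. Compared per kilobase of exon, Pdgfrb had the highest level of the 10 in WT EV cells of the S6K1 series, at 67.0 ± 11.7 CPM per kb (SD, n = 3), above the next gene, Nrp1, in every library (35.7 ± 9.04 CPM per kb). Pdgfra, Vegfb, Vegfa and Pdgfc followed, with neighbours that overlapped, and Pdgfb (1.70 ± 0.98 CPM per kb) and Pgf (1.40 ± 0.40 CPM per kb) came last. In WT EV cells of the S6K1/S6K2 series Pdgfrb was again first (53.7 ± 7.80 CPM per kb), overlapping with Vegfb (47.9 ± 17.0 CPM per kb), and Pgf and Pdgfb were again last. In the RAS groups the order changed: Pdgfra led in WT RAS of the S6K1 series (35.6 ± 9.88 CPM per kb), overlapping with Vegfa. Vegfa led in KO RAS (44.6 ± 4.54 CPM per kb), above the next gene, Pdgfra, in every library. It also led in WT RAS (52.8 ± 3.60 CPM per kb) and DKO RAS (50.2 ± 4.27 CPM per kb) of the S6K1/S6K2 series, overlapping with Pdgfra in both. Pdgfb was the lowest of the 10 in all 4 RAS groups, between 0.73 and 1.43 CPM per kb on average.

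**Figure D1:**
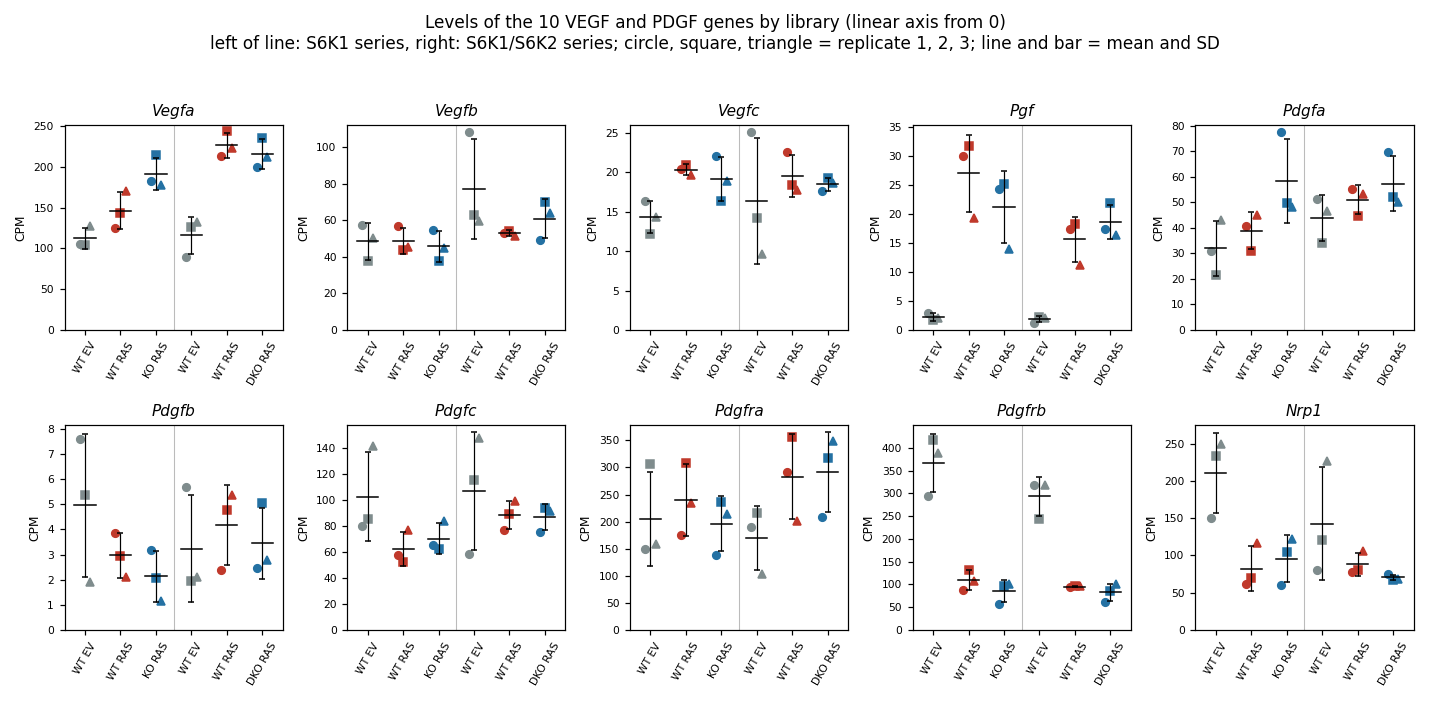
Levels of the 10 genes in CPM (linear axes from 0) in each of the 18 libraries, with group means and SDs, S6K1 series left of the line and S6K1/S6K2 series right of it. Pgf was at 1.22 to 2.92 CPM in the 6 EV libraries and at 11.2 to 31.7 CPM in the 12 RAS libraries, whereas Pdgfrb fell from 245 to 417 CPM to 57.7 to 132 CPM.

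With RAS, Pgf rose and Pdgfrb fell in both series of wild-type MEFs. Nrp1 fell in the S6K1 series and Vegfa rose in the S6K1/S6K2 series. The other 6 genes did not pass the test in either. In numbers, 3 of 10 genes passed an adjusted p of 0.05 in the S6K1 series (1 higher, 2 lower), where 13.2% of all 14036 genes tested passed, and 3 of 10 in the S6K1/S6K2 series (2 higher, 1 lower), where 26.3% of 13881 passed. The share in the S6K1/S6K2 series was thus close to that of all genes. The median log2 fold change of the 10 was 0.12 in the S6K1 series, beside 0.0018 over all genes tested, and 0.24 in the S6K1/S6K2 series, beside -0.024. With the replicate number as a block, 7 of 10 passed in the S6K1 series, where 36.2% of all genes did, the 4 additional ones being Vegfa, Vegfc, Pdgfb and Pdgfc. The block left 3 of 10 in the S6K1/S6K2 series, where 28.7% of all genes passed. The groups did not overlap for 5 of the 10 genes in the S6K1 series and for 4 in the S6K1/S6K2 series, compared with 30.9% and 42.5% of all genes.

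**Figure D2:**
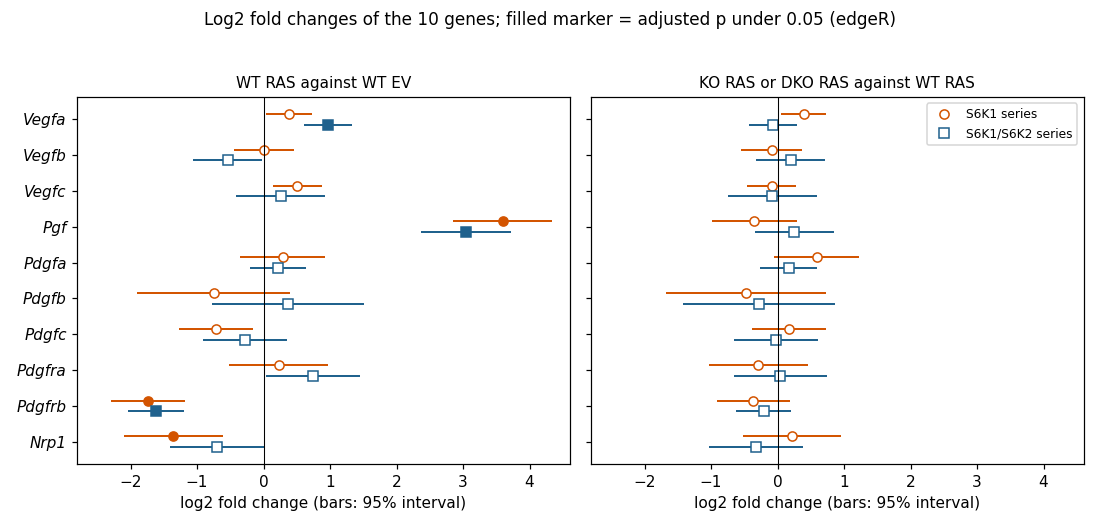
Log2 fold changes (x axis) of the 10 genes with 95% intervals for RAS in wild-type cells (left) and for loss of the kinases under RAS (right), circles for the S6K1 series and squares for the S6K1/S6K2 series, filled where the adjusted p was under 0.05. Pgf lies at 3.59 and 3.05 and Pdgfrb at -1.74 and -1.62 for RAS, and no marker is filled for the loss of the kinases.

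Of the VEGF ligands, Pgf, the placental growth factor (ENSMUSG00000004791.7, chr12:85166637-85177785 in GRCm38.p6, minus strand), changed most. Its level in WT EV cells of the S6K1 series was 2.92, 1.71 and 2.02 CPM, resting on 42, 23 and 22 counts, and in WT RAS cells 30.1, 31.7 and 19.4 CPM. Every RAS library was above every EV library, a rise of 12.1-fold (log2 fold change 3.59, SE 0.33, edgeR adjusted p = 0.000269). Pgf of the S6K1/S6K2 series went from 1.22, 2.30 and 2.10 CPM in WT EV to 17.4, 18.2 and 11.2 CPM in WT RAS, again without overlap and 8.28-fold higher (log2 fold change 3.05, SE 0.30, edgeR adjusted p = 0.000205). Replicate 3 had the lowest Pgf level of each RAS group. Leaving out any 1 WT library kept the log2 fold change between 3.44 and 3.85 in the S6K1 series and between 2.82 and 3.24 in the S6K1/S6K2 series.

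Vegfa, the main angiogenic VEGF (ENSMUSG00000023951.18, chr17:46016993-46032377, minus strand), was at 89.9, 126 and 132 CPM in WT EV and at 213, 244 and 223 CPM in WT RAS of the S6K1/S6K2 series. The groups were apart, and Vegfa rose 1.95-fold (log2 fold change 0.97, SE 0.16, edgeR adjusted p = 0.00239). In the S6K1 series the values were 105, 105 and 127 CPM in WT EV and 125, 144 and 170 CPM in WT RAS. These groups overlapped at the highest EV and the lowest RAS library, and the log2 fold change of 0.38 (SE 0.15) did not pass the test (adjusted p = 0.132). With the replicate block it did (log2 fold change 0.37, adjusted p = 0.0254), and the RAS library was above the EV library of the same number in 3 of 3 pairs.

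Vegfc, the lymphatic VEGF (ENSMUSG00000031520.6, chr8:54077532-54186454, plus strand), was at 16.4, 12.2 and 14.4 CPM in WT EV and 20.4, 20.9 and 19.6 CPM in WT RAS of the S6K1 series. The groups did not overlap, yet the adjusted p was 0.0679 (log2 fold change 0.50, SE 0.16), 0.00793 with the replicate block (log2 fold change 0.52) and 0.0386 in DESeq2. WT EV libraries of the S6K1/S6K2 series spread from 9.62 to 25.1 CPM around the WT RAS values of 17.7 to 22.6 CPM, with a log2 fold change of 0.26 (adjusted p = 0.541). Vegfb, a ligand of VEGFR1 (ENSMUSG00000024962.13, chr19:6982472-6987651, minus strand), was at 37.6 to 57.5 CPM in WT EV and 43.8 to 56.7 CPM in WT RAS of the S6K1 series, a log2 fold change of 0.01 with a 95% interval of -0.43 to 0.45. The other series gave 108, 63.0 and 59.4 CPM in WT EV and 53.3, 54.3 and 51.4 CPM in WT RAS. All RAS values were below all EV values there, but the log2 fold change of -0.54 (SE 0.23) had an adjusted p of 0.105. The highest EV value came from replicate 1, the EV library of that series with the most macrophage marker reads, and without it the log2 fold change was -0.21. Without WT EV replicate 3 it was -0.68 and passed (adjusted p = 0.0485).

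Of the PDGF ligands, none passed the test for RAS in either series without the block. Pdgfc, a latent ligand of the α receptor (ENSMUSG00000028019.9, chr3:81036416-81214040, plus strand), was at 80.5, 85.8 and 142 CPM in WT EV and 57.7, 52.6 and 77.0 CPM in WT RAS of the S6K1 series. The RAS libraries were all lower, and replicate 3 was the highest of both groups. The log2 fold change was -0.72 (SE 0.24, adjusted p = 0.0871), and with the replicate block -0.69 (SE 0.10, adjusted p = 0.000457). It passed in DESeq2 too (adjusted p = 0.0363). Pdgfc of the S6K1/S6K2 series was at 58.4, 115 and 148 CPM in WT EV and 77.2, 89.3 and 99.3 CPM in WT RAS, with overlapping groups and a log2 fold change of -0.28 (adjusted p = 0.486). Pdgfa, the other ligand of the α receptor (ENSMUSG00000025856.15, chr5:138976014-139000792, minus strand), was at 21.7 to 43.1 CPM in WT EV and 30.8 to 45.0 CPM in WT RAS of the S6K1 series, and at 34.0 to 51.1 CPM and 44.7 to 55.2 CPM in the S6K1/S6K2 series. Its groups overlapped in both series, and the log2 fold changes of 0.29 (95% interval -0.34 to 0.91) and 0.22 (-0.19 to 0.63) did not pass the test.

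Pdgfb, the ligand of both receptors (ENSMUSG00000000489.7, chr15:79995865-80024614, minus strand), was low throughout, at 14 to 109 counts per library. In WT EV cells it was at 7.59, 5.37 and 1.92 CPM in the S6K1 series and at 5.68, 1.95 and 2.10 CPM in the S6K1/S6K2 series. The 3 EV libraries with the most Pdgfb were the 3 with the largest macrophage marker sums, 1236 to 2858 CPM, compared with 140 to 576 CPM in the other EV libraries. WT RAS libraries held 3.84, 2.96 and 2.09 CPM in the S6K1 series and 2.38, 4.76 and 5.37 CPM in the S6K1/S6K2 series, where replicate 1, with the most macrophage marker reads, had the least Pdgfb. The log2 RAS effect was -0.75 (SE 0.50, adjusted p = 0.390) in the former series and 0.37 (SE 0.50, adjusted p = 0.619) in the latter. The block brought the former to -0.67 with an adjusted p of 0.0450. Leaving out both S6K1 WT EV libraries with high macrophage markers, an alternative chosen after the data were seen, left 1 WT EV library against 3 WT RAS libraries and gave 0.62. That lone library is assumed to vary like the other groups, and the RAS libraries with marker sums of 3309 and 2997 CPM stayed in. Within pairs of the same number the log2 ratio of Pdgfb was -0.98, -0.86 and 0.12, so its sign differed between the pairs.

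**Figure D3:**
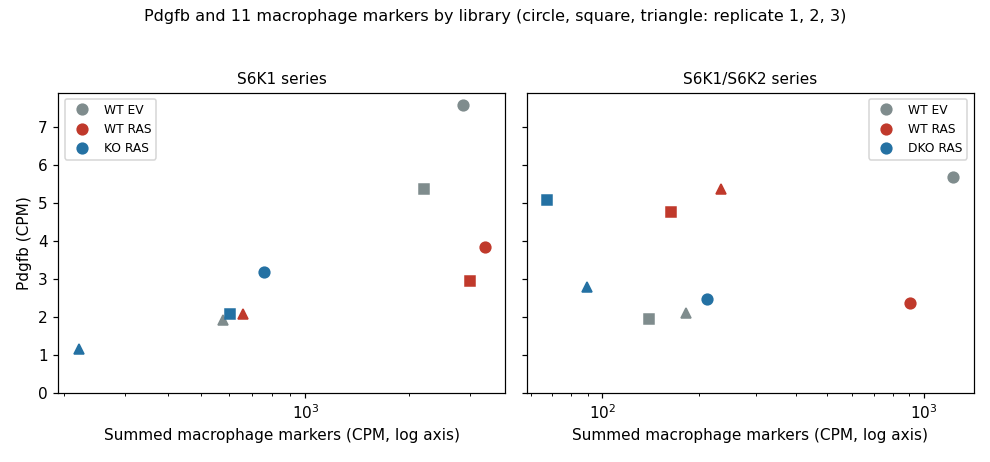
Pdgfb (y axis, CPM from 0) against the summed CPM of 11 macrophage markers (x axis, log scale) in each library of the S6K1 series (left) and the S6K1/S6K2 series (right), coloured by group with a marker for each replicate number. The EV libraries with marker sums of 2858, 2213 and 1236 CPM held 7.59, 5.37 and 5.68 CPM of Pdgfb, and those with sums of 140 to 576 CPM held 1.92 to 2.10 CPM.

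Of the receptors, Pdgfrb (ENSMUSG00000024620.11, chr18:61045127-61085067, plus strand) fell in both series. WT EV libraries of the S6K1 series held 295, 417 and 389 CPM and WT RAS libraries 88.6, 132 and 108 CPM. The lowest EV library was above the highest RAS library, and the level was 3.34-fold lower with RAS (log2 fold change -1.74, SE 0.24, edgeR adjusted p = 0.00189). The S6K1/S6K2 series held 319, 245 and 318 CPM in WT EV and 94.3, 96.2 and 95.5 CPM in WT RAS, 3.08-fold less (log2 fold change -1.62, SE 0.18, edgeR adjusted p = 0.000412). Leaving out any 1 WT library gave log2 fold changes of -1.89 to -1.61 in the S6K1 series and -1.74 to -1.55 in the S6K1/S6K2 series. The fibroblast marker sum was lower in the RAS libraries too, mostly through its collagens, as given above. Of the pericyte and smooth muscle markers, 1 rose and 3 fell of 7 tested in the S6K1 series and 1 rose and 1 fell of 6 in the S6K1/S6K2 series. Cspg4, the NG2 proteoglycan of pericytes, fell from 84.0 to 16.8 CPM and from 86.0 to 23.5 CPM, and Myh11, a smooth muscle myosin, from 60.9 to 12.7 CPM in the S6K1 series. Rgs5, another pericyte marker, rose from 5.26 to 65.3 CPM and from 9.02 to 149 CPM (means of 3 libraries). The part of these cell types in the fall of Pdgfrb was not tested.

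Pdgfra (ENSMUSG00000029231.15, chr5:75151322-75198206, plus strand) did not pass the test in either series. Its S6K1-series values were 150, 306 and 159 CPM in WT EV and 176, 309 and 234 CPM in WT RAS, a log2 fold change of 0.23 with a 95% interval of -0.50 to 0.95 (adjusted p = 0.704). Those of the S6K1/S6K2 series were 190, 215 and 103 CPM in WT EV and 292, 357 and 201 CPM in WT RAS, with a log2 difference of 0.74 (SE 0.31, adjusted p = 0.102). In DESeq2 this effect passed (0.76, adjusted p = 0.0489), and so it did in edgeR without the filter on low counts (adjusted p = 0.0188). Within each pair of the same number the RAS library was higher in 6 of 6. Set against each other per kilobase of exon, Pdgfra was below Pdgfrb in every EV library and above it in every RAS library. The ratio of Pdgfra to Pdgfrb was 0.45 ± 0.14 (SD, n = 3) in WT EV, 1.76 ± 0.14 in WT RAS and 1.89 ± 0.14 in KO RAS cells of the first series, and 0.49 ± 0.23, 2.41 ± 0.66 and 2.86 ± 0.16 in WT EV, WT RAS and DKO RAS of the S6K1/S6K2 series. The ratio was computed after the values were known and was not tested.

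**Figure D4:**
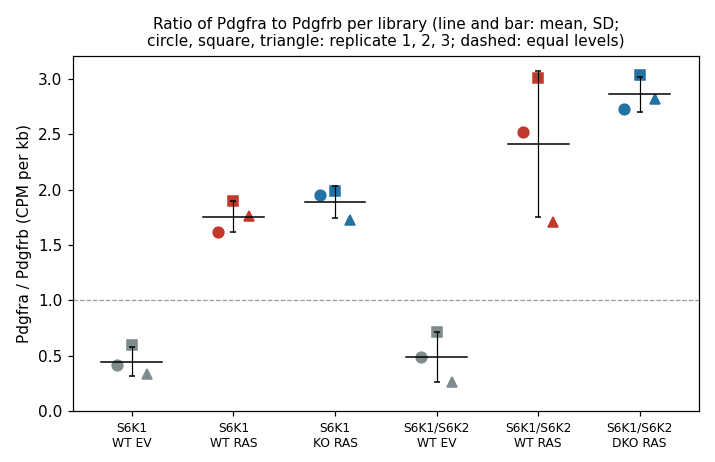
Ratio of Pdgfra to Pdgfrb, both in CPM per kb of exon (y axis from 0), in each library of the 6 groups, with group means and SDs and a dashed line at equal levels. The 6 EV libraries lie between 0.26 and 0.71 and the 12 RAS libraries between 1.61 and 3.04.

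Nrp1, the neuropilin coreceptor (ENSMUSG00000025810.9, chr8:128358591-128505476, plus strand), was at 150, 233 and 249 CPM in WT EV and 61.2, 69.3 and 116 CPM in WT RAS of the S6K1 series. The groups were apart and the level was 2.56-fold lower with RAS (log2 fold change -1.35, SE 0.33, edgeR adjusted p = 0.0247). The call was lost in 4 of the 6 fits that left out 1 WT library, namely WT EV 2, WT EV 3, WT RAS 1 and WT RAS 2, with log2 fold changes from -1.69 to -1.18 over all 6. The call was also lost without both WT EV libraries rich in macrophage markers, with 1 WT EV library left. In the S6K1/S6K2 series Nrp1 was at 79.9, 121 and 227 CPM in WT EV and 78.3, 79.8 and 106 CPM in WT RAS. The lowest EV library lay within the RAS range, and the log2 fold change was -0.70 (SE 0.31, adjusted p = 0.125). Without that EV library, replicate 1, it was -0.99 and passed the test, as did Vegfc and Pdgfc.

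In a single fit of all 18 libraries, none of the 10 genes had a RAS effect that differed between the series after adjustment (edgeR, 0 of 10, beside 0% of 14483 genes), and 1 of 10 had an unadjusted p under 0.05. That gene was Vegfa, whose RAS effect was higher by 0.58 on the log2 scale in the S6K1/S6K2 series (95% interval 0.13 to 1.03, adjusted p = 0.315). DESeq2 called 0 of the 10 as well. For Nrp1 the difference was 0.65 (95% interval -0.37 to 1.67) and for Pdgfrb 0.11 (-0.55 to 0.76), so calls made in 1 series only were not shown to differ between them. Each series had its own controls, and series and batch cannot be told apart.

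Loss of S6K1, or of S6K1 and S6K2, left none of the 10 genes past the threshold in RAS-expressing cells. In the S6K1 series 0 of 10 passed in edgeR, with and without the replicate block, and in DESeq2, 1 of 10 had an unadjusted p under 0.05, and 0.00712% of all genes tested passed (4.15% with the block). For the loss of both kinases 0 of 10 passed under the same fits, 0 had an unadjusted p under 0.05, and 0.0216% of all genes passed (0.0576% with the block). The targeted Rps6kb1 itself had an adjusted p of 0.234 in the S6K1 comparison (log2 fold change -1.17) and 0.000101 with the block, so the threshold without the block was hard to reach in this comparison. The log2 fold changes of the 10 ranged from -0.47 to 0.59 in the S6K1 series and from -0.32 to 0.25 in the S6K1/S6K2 series, with medians of -0.09 and -0.05 beside 0.03 and -0.0003 over all genes tested. These values do not show that the levels were equal: for Pgf the 95% interval was -0.98 to 0.28 without S6K1 and -0.32 to 0.83 without both kinases.

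The gene with the smallest p in the S6K1 loss comparison was Vegfa, at 183, 214 and 178 CPM in KO RAS against 125, 144 and 170 CPM in WT RAS. All KO libraries were above all WT libraries, with a log2 fold change of 0.39 (SE 0.15, 95% interval 0.06 to 0.72, adjusted p = 0.599, and 0.0820 with the block). Pdgfa was the other gene without overlap, at 77.4, 49.7 and 48.2 CPM in KO RAS against 40.7, 30.8 and 45.0 CPM in WT RAS (log2 fold change 0.59, SE 0.28, adjusted p = 0.771). Over all genes tested, 8.02% had groups that did not overlap in this comparison, compared with 2 of these 10. In the S6K1/S6K2 series Vegfa was at 199, 235 and 212 CPM in DKO RAS and overlapped with WT RAS (log2 fold change -0.07, 95% interval -0.42 to 0.27), and Pdgfa was at 69.6, 52.1 and 50.2 CPM (log2 fold change 0.17). Nrp1 was lower there without overlap, at 74.6, 67.5 and 69.0 CPM in DKO RAS against 78.3, 79.8 and 106 CPM in WT RAS (log2 fold change -0.32, SE 0.31), in a comparison in which 6.07% of all genes did not overlap.

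The remaining members overlapped between WT RAS and the knockout groups. Pgf was at 24.4, 25.2 and 14 CPM in KO RAS and 17.4, 21.9 and 16.3 CPM in DKO RAS. Pdgfrb was at 57.7, 96.5 and 101 CPM in KO RAS and 61.9, 85.0 and 100.4 CPM in DKO RAS. Pdgfra was at 139 to 236 CPM in KO RAS and 208 to 348 CPM in DKO RAS, Pdgfc at 62.2 to 83.8 and 75.8 to 93.9 CPM, Vegfb at 37.8 to 54.7 and 49.1 to 70.0 CPM, and Vegfc at 16.4 to 22.0 and 17.6 to 19.3 CPM. Pdgfb was at 1.17 to 3.18 CPM in KO RAS and 2.48 to 5.07 CPM in DKO RAS. The macrophage marker sum was lower in each knockout library than in the WT RAS library of the same number, in both series. In KO RAS 0 of the 11 markers were called without the block. With the block all 11 were called lower there, beside 4.15% of all genes. In DKO RAS 0 of 11 were called without the block and 1 with it, beside 0.0576% of all genes. A fit added after the data were seen used the mean log2 CPM of these 11 markers as a covariate. In it the S6K1 loss effect changed sign for Vegfb, Pgf, Pdgfb, Pdgfc and Nrp1, with no gene past the threshold. Pdgfb, for example, went to 0.79 and Nrp1 to -0.49. Because the marker sums were lower in KO RAS at each replicate number, this fit cannot fully separate the markers from the genotype. The difference in loss effect between the series passed for 0 of the 10 genes in edgeR and in DESeq2, with 0 unadjusted p-values under 0.05 and 0.00690% of all genes called, its largest values being 0.64 for Pgf (95% interval -0.21 to 1.48) and -0.51 for Nrp1 (-1.54 to 0.51).

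With RAS, Flt4 rose and Nrp2, Vegfd and Pdgfrl fell in both series, among the other ligands and receptors of the families. Of 7 such genes, 1 rose and 5 fell in the S6K1 series, and 1 rose and 3 fell in the S6K1/S6K2 series, beside 7.15% and 6.09% (higher and lower) of all genes tested in the former and 13.5% and 12.7% in the latter. Their median log2 fold changes were -1.25 and 0.21. Flt4, the VEGF-C receptor, was at 42.9, 45.5 and 33.7 CPM in WT EV and 110, 116 and 108 CPM in WT RAS of the S6K1 series (log2 fold change 1.45, adjusted p = 0.00103). The S6K1/S6K2 series went from 1.75, 10.2 and 19.5 CPM to 96.0, 103 and 84.9 CPM (log2 fold change 3.17, SE 0.60, adjusted p = 0.00518). The difference of the 2 RAS effects on Flt4 was 1.71 (adjusted p = 0.329). Of the 12 endothelial markers, Cdh5 and Esam rose in the same comparisons and Erg fell, as given above, while Pecam1, Tie1, Cldn5, Robo4 and Sox17 were under 1 CPM in every library. Their part in the rise of Flt4 was not tested.

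Nrp2, the second neuropilin, was lower with RAS by 1.26 on the log2 scale in the S6K1 series, where it went from 279, 347 and 327 CPM to 130, 135 and 133 CPM (adjusted p = 0.000516). It fell by 1.23 in the S6K1/S6K2 series, from 251, 273 and 283 CPM to 124, 124 and 95.9 CPM (adjusted p = 0.000333). Vegfd, the other ligand of VEGFR3, fell by 1.25 (adjusted p = 0.00365) and 1.93 (adjusted p = 0.00189), and Pdgfrl, a receptor-like gene without a kinase, was 2.77-fold (adjusted p = 0.00621) and 3.99-fold lower (adjusted p = 0.00167). Pdgfd, the latent ligand of the β receptor, fell by 0.68 in the S6K1 series (adjusted p = 0.0102; 0.0563 without WT RAS 2, at -0.59) and had a log2 fold change of 0.21 in the S6K1/S6K2 series (adjusted p = 0.333). The difference of the 2 RAS effects on Pdgfd was 0.88 (adjusted p = 0.142), and 0.89 with the block (adjusted p = 0.0432), under which 0.400% of all genes passed. In that fit the block also tied DKO RAS to WT libraries by number, a pairing that the sources do not give. Kdr, the main receptor of VEGF-A, was at 2.53 to 8.25 CPM in WT libraries and did not pass in either series (log2 fold changes -0.06 and 0.36).

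Flt1, which encodes VEGFR1 and is also carried by monocytes and macrophages, was at 219, 240 and 88.1 CPM in WT EV and 58.6, 80.0 and 50.8 CPM in WT RAS of the S6K1 series. It fell by 1.53 on the log2 scale (SE 0.35, adjusted p = 0.0196). The EV libraries with 219 and 240 CPM were those with the high macrophage marker sums, and without both of them, with 1 WT EV library left against 3 WT RAS libraries, the log2 fold change was -0.48. Within the pair of that remaining library it was -0.79, and in the other 2 pairs -1.90 and -1.58. The call was also lost without WT EV 1 (-1.39), WT EV 2 (-1.28), WT RAS 1 (-1.48) or WT RAS 3 (-1.40) alone. In the S6K1/S6K2 series, where Flt1 was at 24.8, 20.2 and 37.2 CPM in WT EV and 36.2, 37.9 and 34.7 CPM in WT RAS, the log2 fold change was 0.40 (adjusted p = 0.350). The difference between the series was 1.92 (adjusted p = 0.190). Marker sums of 3309, 2997 and 659 CPM went with the 3 WT RAS values of Flt1 in the S6K1 series, in replicate order, and a sum of 1236 CPM with 24.8 CPM of Flt1 in WT EV 1 of the other series. The part of macrophages in the level of Flt1 was not tested.

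None of these 7 genes passed for the loss of the kinases without the block. Vegfd came nearest, at 16.7, 14.5 and 20.2 CPM in KO RAS against 36.4, 34.5 and 21.6 CPM in WT RAS. Its groups did not overlap, nor did those of Kdr and Nrp2, beside 8.02% of all genes tested. The log2 fold change of Vegfd was -0.85 (SE 0.20, adjusted p = 0.587), and -1.12, -1.25 and -0.09 within the pairs of the same number. The adjusted p of Vegfd was 0.0414 with the block, where 4.15% of all genes passed, and 0.0478 in DESeq2, where 63 of 14036 passed. Kdr was at 3.18, 4.06 and 4.50 CPM in KO RAS against 7.09, 8.25 and 4.82 CPM in WT RAS (log2 fold change -0.78, adjusted p = 0.587). In DKO RAS Vegfd was at 14.9, 23.5 and 33.0 CPM (log2 fold change 0.16) and Kdr at 4.06 to 6.79 CPM (0.03).

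**Figure D5:**
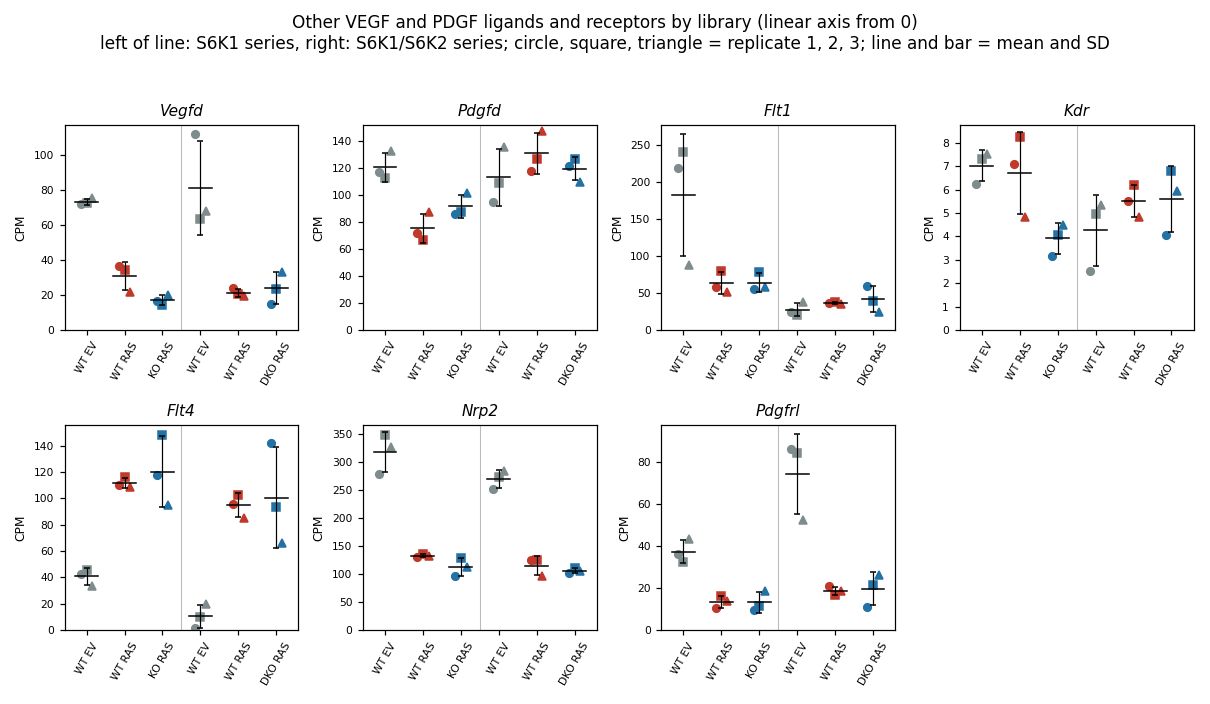
Levels of 7 other VEGF and PDGF ligands and receptors in CPM (linear axes from 0) in each of the 18 libraries, with group means and SDs, S6K1 series left of the line and S6K1/S6K2 series right of it. Flt4 is at 1.75 to 45.5 CPM in EV and 66.3 to 148 CPM in RAS libraries, Nrp2 at 251 to 347 CPM and 95.9 to 135 CPM.

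Proteins that cut or anchor the ligands were measured from a list of 8 genes. With RAS, 2 rose and 2 fell in the S6K1 series and 3 rose and 2 fell in the S6K1/S6K2 series, with median log2 fold changes of 0.07 and 0.18. Of all genes tested, 13.2% passed in the former series and 26.3% in the latter. Plau, the urokinase that activates PDGF-DD, went from 151 ± 36.6 CPM in WT EV to 1295 ± 269 CPM in WT RAS of the S6K1 series (SD, n = 3, log2 fold change 3.10, adjusted p = 0.000668) and in the S6K1/S6K2 series from 70.1 ± 34.4 to 1001 ± 278 CPM (3.84, adjusted p = 0.00133). Ccbe1, a cofactor of VEGF-C cleavage, rose from 24.6 ± 5.25 to 156 ± 7.99 CPM (2.66, adjusted p = 0.000127) and from 11.4 ± 1.67 to 175 ± 28.9 CPM (3.94, adjusted p = 0.000112). Adamts3, the protease that works with Ccbe1, fell in the S6K1/S6K2 series from 25.9 ± 14.4 to 2.82 ± 0.97 CPM (log2 fold change -3.20, adjusted p = 0.00140). In the S6K1 series its log2 fold change was -1.15 (adjusted p = 0.332), and it passed with the block (adjusted p = 0.00242). The protein convertase gene Pcsk6 fell by 1.66 (adjusted p = 0.00466) and 2.02 (adjusted p = 0.00590). The cofactor and the protease of VEGF-C cleavage thus moved in opposite directions in the S6K1/S6K2 series.

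A list of 13 genes held the class 3 semaphorins that act through neuropilins, their plexin receptors and the neuropilin adaptor Gipc1, and all but Sema3g were tested. In the S6K1 series 2 rose and 1 fell of 12, and in the S6K1/S6K2 series 3 rose and 2 fell (medians 0.08 and 0.29 on the log2 scale), beside 13.2% and 26.3% of all genes in either direction. Sema3a, a repulsive ligand of Nrp1, rose from 92.5 ± 15.5 to 259 ± 43.1 CPM (log2 fold change 1.49, adjusted p = 0.00127) and from 73.2 ± 16.5 to 266 ± 56.6 CPM (1.86, adjusted p = 0.000613), and Sema3e, which signals mainly through plexin D1, by 1.90 (adjusted p = 0.00229) and 2.77 (adjusted p = 0.00183) on the log2 scale. Sema3f, a ligand of Nrp2, fell by 1.90 (adjusted p = 0.00975) and 1.33 (adjusted p = 0.0155). Of 21 receptor signalling adaptors and effectors, 2 rose and 1 fell in the S6K1 series and 7 rose and 3 fell in the S6K1/S6K2 series (medians -0.01 and 0.24). The count of 3 of 21 in the former was close to the 13.2% of all genes, and the latter stood beside 26.3%. Rasa1, a RAS GTPase-activating protein that binds PDGF receptor β, rose by 0.74 (adjusted p = 0.0104) and 0.90 (adjusted p = 0.00239), the kinase gene Src by 0.59 (adjusted p = 0.0194) and 0.99 (adjusted p = 0.00531), while Stat3 fell by 0.71 (adjusted p = 0.00522) and 0.42 (adjusted p = 0.0381). Fyn rose by 1.01 in the S6K1/S6K2 series (adjusted p = 0.00233) and had a log2 fold change of 0.10 in the S6K1 series (adjusted p = 0.776), a difference that did not pass (0.89, adjusted p = 0.262). The call of Src in the S6K1 series was lost without WT EV 1, WT EV 3, WT RAS 2 or WT RAS 3, with log2 fold changes of 0.49 to 0.62.

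Vegfa belongs to the genes that HIF switches on at low oxygen, and 20 other genes of this response were listed. With RAS, 3 rose and 1 fell in the S6K1 series, and 7 rose and 0 fell in the S6K1/S6K2 series, beside 7.15% higher and 6.09% lower of all genes in the former and 13.5% and 12.7% in the latter. Their median log2 fold changes were -0.08 and 0.35, beside 0.0018 and -0.024 over all genes tested. Egln3, a HIF prolyl hydroxylase, rose by 1.88 (adjusted p = 0.00361) and 2.54 (adjusted p = 0.000205) and the glucose transporter gene Slc2a1 by 1.13 (adjusted p = 0.00737) and 1.96 (adjusted p = 0.000123). Adm rose by 1.41 in the S6K1/S6K2 series (adjusted p = 0.00547) and by 0.93 in the S6K1 series (adjusted p = 0.0392), a call lost without WT EV 1, WT EV 2, WT RAS 2 or WT RAS 3 (0.70 to 0.92) and in a fit of the 6 compared libraries alone (adjusted p = 0.0614). Ankrd37 rose by 2.63 in the S6K1/S6K2 series, from 1.61 ± 0.68 to 10.1 ± 2.26 CPM (adjusted p = 0.000815). Its log2 fold change in the S6K1 series was 1.18 (adjusted p = 0.0535, and 0.00483 with the block).

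The replicate block raised the counts of these lists for RAS in the S6K1 series, from 4 to 6 of 8 for ligand processing, from 3 to 7 of 12 for semaphorins and plexins, from 3 to 8 of 21 for adaptors and effectors and from 4 to 11 of 20 for the hypoxia response, beside 36.2% of all genes. In the S6K1/S6K2 series it added Plxnd1, the plexin of Sema3e (log2 fold change 0.84 with the block, adjusted p = 0.00301). None of the genes of these 4 lists passed the test for the loss of the kinases in edgeR without the block (0 of 61 tested in each series). With the block Sema3f passed for the loss of S6K1, with a log2 fold change of 0.61 (adjusted p = 0.0103, and 0.980 without it), in a comparison in which 4.15% of all genes passed with the block. Between the series, the RAS effects on Bnip3, P4ha2 and Ero1l of the hypoxia list differed with the block (1.13, 0.92 and 1.74 on the log2 scale, adjusted p = 0.0431, 0.0494 and 0.0432), beside 0.400% of all genes, and did not pass without it. There too the block tied DKO RAS to WT libraries by number alone.

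For each of the 10 genes, the 2 genes with the most similar level across libraries were found by Pearson's r of log2 CPM, centred within each series, among 12874 genes over 18 libraries. The EV and RAS libraries form separate sets, so for a gene that changed with RAS this measure mostly ranks other genes by that change. Pgf was most like Chrna1 (0.99) and Pdpn (0.98), Vegfa like C77080 and Mtmr7 (both 0.98), Pdgfrb like Antxr1 and Myo7a (both 0.98), and Nrp1 like Phldb2 and Gria3 (both 0.96). For Pdgfa the nearest were Bsg (0.94) and Fam26e (0.91), for Pdgfc Sync and Shroom3 (both 0.93), for Vegfb Stx4a and Usf2 (both 0.89) and for Pdgfra Igf2bp2 and Ptgir (both 0.88). Vegfc with Mir17hg (0.86) and Fam195a (0.84), and Pdgfb with Smagp (0.87) and Amz1 (0.81), had the loosest neighbours. None of the 10 was among the 2 nearest genes of another.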

How the data were processed

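Per the labels and the study's methods, total RNA was extracted with TRIzol and sequenced from stranded mRNA libraries. The authors deposited 1 table of raw counts per gene for 18 libraries. The methods name mm9, TopHat and HTSeq, and the submitters' processing notes name mm10, CASAVA, STAR 2.7.1a and DESeq2 1.28.1, so the aligner and build are not settled. Of the 55401 identifiers, 12345 carry the same version in the GENCODE vM1 annotation of mm9, from which symbols (32589 identifiers, 99.14% of counts) and exon lengths were taken. Promoters, positions and strands are those of RefSeq on GRCm38.p6, the mm10 assembly.

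Counts were filtered with filterByExpr (minimum count 10), scaled by TMM and tested with edgeR 4.0.16 (glmQLFit and glmQLFTest, R 4.3.3, two-sided, group only, each series of 9 libraries alone), with Benjamini-Hochberg adjustment over all genes tested and a threshold of 0.05. The 18 libraries were fitted together for differences between series. SEs are the log2 fold change over the square root of F, and 95% intervals use the same SE. With totals of 8319445 to 14402442 counts, Pgf rested on 14 to 42 counts and Pdgfb on 21 to 109 counts per EV library. Pdgfb had the largest SE of the 10 genes for RAS, 0.50 in both series. The methods state MEFs of at least 3 mothers and tie no library to one, so p-values measure the spread between libraries. Library numbers come from the labels, which number the cultures of each genotype. In the S6K1 series, deviations of same-numbered libraries from their group means correlated at 0.66, 0.43 and 0.66 (WT EV and WT RAS) and 0.67, 0.38 and 0.61 (WT RAS and KO RAS). In WT EV and WT RAS of the S6K1/S6K2 series r was 0.36, 0.29 and 0.30. Libraries of different numbers reached at most 0.17 (WT EV and WT RAS) and 0.019 (WT RAS and KO RAS) in the S6K1 series. In WT EV and WT RAS of the S6K1/S6K2 series they reached at most 0.096. With every same-numbered pair over 0.1, these numbers were taken as pairs, although 0.17 is over it too. The fit with the replicate block is given where it changes a call. No 2 replicates agreed within sampling noise.

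Named were all 10 genes, the targeted genes, every other ligand and receptor of the families, up to 3 genes passing the test with the largest change per pathway list and comparison, and 2 most similar genes per member. Single markers, and list genes named for passing only with the block, were chosen after their values were seen. Members and lists were chosen with earlier results of these data known. Other settings were DESeq2 1.42.0, scaling by its size factors or by the upper quartile, tests of all genes or of those with 10 or more counts throughout, 6 or 18 libraries per fit, the replicate block and leaving out each library, plus a macrophage marker covariate and leaving out libraries rich in these markers, both added after the data were seen. The edgeR steps were tested on simulated data.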

Additional observations from a re-analysis of the deposited data

How the results depend on the processing

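The calls of Pgf and Pdgfrb with RAS in both series, and of Vegfa in the S6K1/S6K2 series, held under all alternatives run. The number of the 10 genes called with RAS in the S6K1 series was 3. It became 4 without the filter on low counts (Pdgfc added) and 5 in DESeq2 (Vegfc and Pdgfc added). With the macrophage covariate it was 5, with the replicate block 7, and 2 to 3 when single libraries were left out. Without both WT EV libraries rich in macrophage markers, which left 1 WT EV library, Nrp1 was not called. The log2 fold change of Pdgfc was -1.19 in that fit. Vegfd, Pdgfd, Flt1, Pcsk6, Rasa1, Stat3, Src, Egln3 and Adm were not called there either. Their log2 fold changes were -1.29, -0.82, -0.48, -1.71, 0.98, -0.71, 0.60, 1.85 and 0.63. In the S6K1/S6K2 series the number was 3, and it became 4 in DESeq2 (Pdgfra added). Without the filter on low counts it was 6 (Vegfb, Pdgfra and Nrp1 added). It was 3 to 6 when single libraries were left out, with 6 without WT EV replicate 1. Without both WT libraries rich in macrophage markers it was 4, Nrp1 being added (log2 fold change -0.91, edgeR adjusted p = 0.0420). For the loss comparisons and the differences between series the count was 0 under all alternatives, and the replicate block changed no other call of the 10 genes than those given for the S6K1 series. The number of DKO RAS libraries and WT RAS libraries marks no shared embryo or mother in the sources, and their deviations correlated at 0.28, 0.44 and -0.03, so they share only a number, and not every library correlated best with its own; the block moved the count of genes called there from 3 to 8. Over all genes the block moved the S6K1 loss count from 1 to 583 and the count of the RAS difference from 0 to 58, and DESeq2 gave 63 and 143.

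Signs that reversed belonged to effects that had not passed the test, and the cause was not tested. For RAS in the S6K1 series, Vegfb was -0.000797 with upper-quartile scaling, and without both WT EV libraries rich in macrophage markers Vegfb was -0.042, Pdgfa -0.15 and Pdgfb 0.62. For S6K1 loss, the macrophage covariate gave 0.025 for Vegfb, 0.31 for Pgf, 0.79 for Pdgfb, -0.40 for Pdgfc and -0.49 for Nrp1. Leaving out both WT RAS libraries rich in these markers gave 0.021 for Vegfb, 0.13 for Pgf, 0.032 for Pdgfb, -0.13 for Pdgfc and -0.28 for Nrp1. For loss of both kinases the covariate gave 0.23 for Vegfc and -0.035 for Pdgfra.

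Leaving out single libraries moved these log2 fold changes across 0. For RAS in the S6K1 series Vegfb ranged from -0.14 to 0.14, and in the S6K1/S6K2 series Vegfc from -0.00067 to 0.71 and Pdgfc from -0.57 to 0.043. For S6K1 loss Vegfb ranged from -0.25 to 0.038 and Vegfc from -0.21 to 0.011. For loss of both kinases Vegfc ranged from -0.15 to 0.038, Pdgfc from -0.11 to 0.069 and Pdgfra from -0.15 to 0.24. For the difference in RAS effect Vegfc ranged from -0.52 to 0.19, Pdgfa from -0.34 to 0.14 and Pdgfrb from -0.019 to 0.27, and for the difference in loss effect Vegfc from -0.063 to 0.16, Pdgfb from -0.16 to 0.62 and Pdgfrb from -0.028 to 0.34.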
